A study of Mus musculus with 8 samples.

Results

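Dpep1, Dpep2 and Dpep3 encode the membrane dipeptidases of the mouse, a family of cell-surface zinc enzymes that split dipeptides. They were taken by symbol from a table of raw gene counts, in which the 3 genes hold 4 of 56941 Ensembl identifiers, because Dpep2 is annotated as 2 overlapping gene models. Only the Dpep1 identifier had enough counts to be tested. The libraries came from the jejunum, a stretch of small intestine between duodenum and ileum, of naive mice of the inbred strains C57BL/6 (B6, 4 libraries, replicates 2, 3, 4 and 5) and C3H/HeJ (C3H, 4 libraries, replicates 1, 3, 4 and 5). Mice of both strains shared cages, received no treatment, and are all labelled batch 1. Their age is given as 6 to 8 weeks and the shared housing as at least 8 weeks, so the age at sampling is unclear. The strains differ across the whole genome, and the labels name no engineered allele. Dpep1 is the candidate gene of the study, whose title ties food anaphylaxis to allergen uptake driven by cysteinyl leukotrienes, and the comparison asks whether its transcript differs between the unchallenged strains. The labels do not say that each library came from its own mouse, so the p-values speak only of the spread among libraries, which may be technical.

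Cysteinyl leukotrienes are inflammatory lipids made from arachidonic acid and joined to glutathione. Leukotriene C4 is made inside the cell and exported, gamma-glutamyl transferases then remove its glutamate to give leukotriene D4, and membrane dipeptidase removes the glycine to give leukotriene E4. DPEP1, anchored in the membrane by a glycolipid, also splits cysteinylglycine released from glutathione, and is known from the brush border of kidney tubules and intestine. DPEP2 also converts leukotriene D4 and is known from leukocytes, while DPEP3 is known from testis and does not cleave leukotriene D4.

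Total counts ran from 37205896 to 58251332 per library. Of 18025 genes tested, 3857 (21.4%) passed the threshold between strains, an adjusted p under 0.05 in edgeR's quasi-likelihood test with Benjamini-Hochberg adjustment. The median log2 fold change, C3H over B6, was 0.03. Levels are in CPM, counts scaled to a common library size after TMM correction, unless stated otherwise. Epithelial genes were abundant in all libraries: the 8 genes of the epithelium list, among them Vil1, the microvillus protein villin, and Epcam, summed to 10547 to 12594 CPM in B6 and 9155 to 12432 CPM in C3H. The 12 genes of the pancreatic acinar list, which encode digestive enzymes and a cofactor, summed to 298, 109, 31.3 and 44.9 CPM in B6 2, 3, 4 and 5. In C3H they summed to 55.4 and 94.1 CPM in C3H 1 and C3H 4, and to 3356 and 1520 CPM in C3H 3 and C3H 5. In the lowest library, B6 4, Clps (24.01 CPM) and Cela1 (6.95 CPM) made up nearly all of the sum while Prss2 was at 0.037 CPM, and in C3H 1 they had 47.6 and 7.3 CPM while Prss2 was at 0, so the low sums are not a measure of pancreatic RNA.

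Dpep1 (ENSMUSG00000019278, chromosome 8) was strongly transcribed in the jejunum of both strains, and its level did not pass the threshold between them. It had 391, 457, 419 and 438 CPM in B6 2, 3, 4 and 5. In C3H 1, 3, 4 and 5 it had 402, 435, 505 and 594 CPM. The strains overlapped: the lowest 2 values were B6 2 and C3H 1 and the highest 2 were C3H 4 and C3H 5, while the other libraries of both strains lay between. For 24.4% of tested genes the 4 values of each strain did not overlap. The means were 426 ± 28.1 CPM in B6 and 484 ± 85.1 CPM in C3H (SD, n = 4 each). On the log2 scale C3H exceeded B6 by 0.18, with a standard error of 0.13 (edgeR, adjusted p = 0.350). In linear terms C3H had 1.14 times the B6 level, with a 95% interval of 0.938 to 1.37. The data therefore leave room for a rise of up to 1.37-fold or a fall of up to 1.07-fold. Leaving out C3H 5, the highest library, brought the log2 fold change to 0.07. Removing the 4 libraries with the highest pancreatic sums (B6 2, B6 3, C3H 3 and C3H 5) also brought it to 0.07 (adjusted p = 0.897, edgeR, 2 libraries per strain). These are called pancreas-rich below, although B6 3, at 109 CPM, was little above C3H 4, which was kept at 94.1 CPM.

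Dpep1 ranked 263 of 17715 tested genes with a known exon length when its mean was divided by that length (183 CPM per kb, 2486 exon bases). Library values spread by 6.60% of the mean in B6 and by 17.6% in C3H (coefficient of variation). Among the 580 tested genes within 2-fold of its mean CPM, 63.3% had a lower fitted dispersion and 54.3% a smaller absolute log2 fold change, and 18.3% passed the threshold. By these measures Dpep1 stood near the middle of transcripts of like abundance. None of its exon bases is shared with another gene in GENCODE M21, on either strand, so reads in it are not shared with another gene of that annotation.

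**Figure D1:**
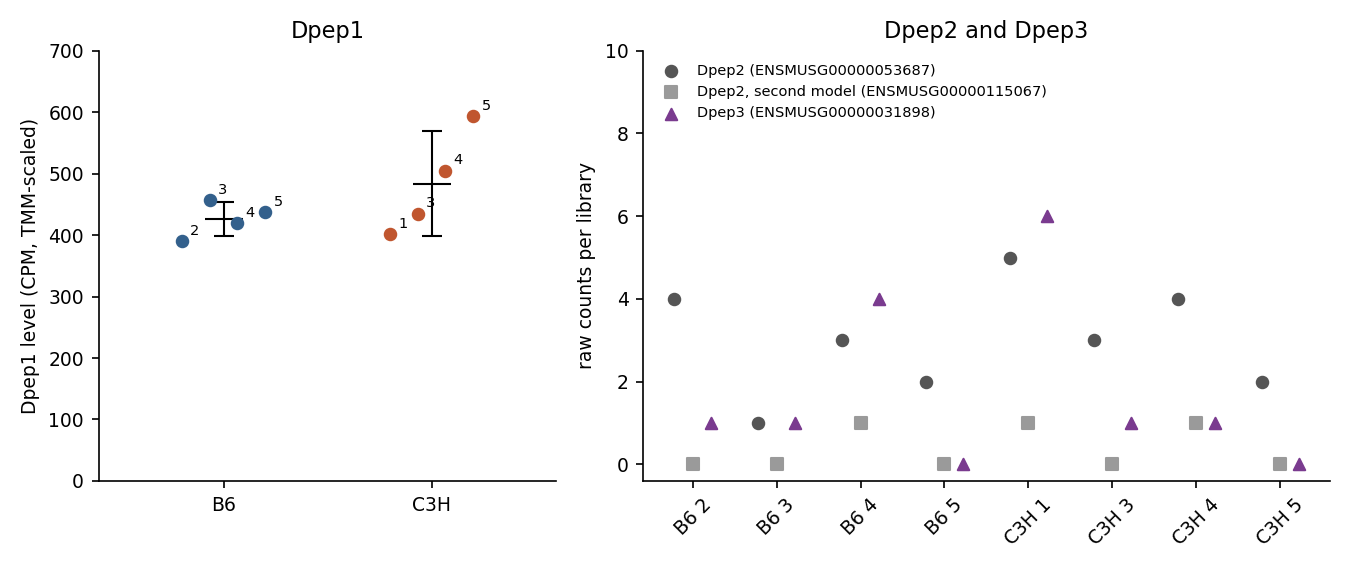
Dpep1 level in CPM by strain (left: points, libraries with their replicate number; line and bar, mean and SD, n = 4) and raw counts of the Dpep2 and Dpep3 identifiers in each library (right). Dpep1 runs from 391 to 594 CPM with overlap between strains, and no Dpep2 or Dpep3 identifier exceeds 6 counts in any library.

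Dpep2 and Dpep3 were at the edge of detection. Dpep2 (ENSMUSG00000053687) had 4, 1, 3 and 2 counts in B6 2, 3, 4 and 5. In C3H 1, 3, 4 and 5 it had 5, 3, 4 and 2 counts. Every library held at least 1 count, and the strains overlapped. The sums were 10 counts in B6 (95% Poisson interval 4.8 to 18.4) and 14 in C3H (7.65 to 23.5), and scaled for depth the C3H to B6 ratio was 1.45 (exact conditional 95% interval 0.601 to 3.66). The second Dpep2 model (ENSMUSG00000115067) had 1 count in each of B6 4, C3H 1 and C3H 4 and 0 elsewhere. In GENCODE M21 this model shares 97.2% of its exon bases with other genes of the same strand, among them ENSMUSG00000053687, which shares 40.4% of its own and keeps 2531 bases that no other gene of its strand covers. A counter that sets aside reads fitting several genes would lose reads in the shared bases, and the counting mode is not given in the sources used here, so the Dpep2 counts may be too low.

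Dpep3 (ENSMUSG00000031898) had 1, 1, 4 and 0 counts in B6 2, 3, 4 and 5. In C3H 1, 3, 4 and 5 it had 6, 1, 1 and 0 counts. The highest library was C3H 1 and both replicates 5 were empty, so no order of the strains appears. The sums were 6 in B6 (95% Poisson interval 2.20 to 13.1) and 8 in C3H (3.45 to 15.8), a depth-scaled ratio of 1.39 (0.422 to 4.84). Without C3H 1 the log2 ratio turned from 0.47 to -1.05. These intervals cover counting error only. With no filter on low counts, edgeR gave an adjusted p of 0.675 for Dpep2 and of 0.843 for Dpep3. A difference between strains was not detectable at this depth for either gene.

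Per exon base, Dpep1 had 11714 times the counts of Dpep2 (ENSMUSG00000053687) and 8029 times those of Dpep3 over all 8 libraries. The Dpep2 figure uses all 4247 of its exon bases, of which 2531 are unshared on its strand. It would be lower if reads in the shared bases were set aside. Dpep1 made up at least 99.9% of the counts of the family in each library, from 99.94% in C3H 1 to 99.99% in B6 5. Beside Dpep2, the leukocyte member, all 10 macrophage and dendritic cell markers were detected, none of them at 0, and they summed to 348 to 408 CPM in B6 and 401 to 463 CPM in C3H. Of these, 2 passed the threshold (20%, against 21.4% of all tested genes): Csf1r, the receptor for macrophage colony-stimulating factor, rose from 61.9 to 78.8 CPM (adjusted p = 0.00933), and the complement gene C1qa rose from 48.9 to 68.1 CPM with overlap between strains (adjusted p = 0.0185, and 0.0545 and 0.0524 without B6 2 or C3H 4, edgeR). Their part in the Dpep2 counts was not tested.

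The 250 bases before the RefSeq start of the abundant and of a near-silent member are shown to set their sequence beside this contrast. Both come from the reference strain C57BL/6J in build GRCm38.p6, so they hold no C3H allele. Dpep1 lies at chr8:123185985-123186234 on the plus strand and Dpep3 at chr8:105979420-105979669 on the minus strand. The 2 windows read 5′ to 3′ along each gene, and capitals mark CAAAG, a half-site of the enterocyte factor HNF4, on either strand.
Dpep1: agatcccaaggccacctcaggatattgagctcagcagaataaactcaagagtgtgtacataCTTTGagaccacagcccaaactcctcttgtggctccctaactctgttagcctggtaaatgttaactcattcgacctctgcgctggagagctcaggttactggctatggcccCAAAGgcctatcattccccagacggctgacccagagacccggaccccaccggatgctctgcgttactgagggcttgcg
Dpep3: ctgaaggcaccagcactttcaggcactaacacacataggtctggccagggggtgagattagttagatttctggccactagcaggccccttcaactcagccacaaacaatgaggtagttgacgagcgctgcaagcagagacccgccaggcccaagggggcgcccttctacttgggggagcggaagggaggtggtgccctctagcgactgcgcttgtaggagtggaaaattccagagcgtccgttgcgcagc
The Dpep1 window held CAAAG at 2 places, 78 and 189 bases before the start, and the Dpep3 window held none. Of 32851 mouse promoters in the same 250-base window, 48.6% hold this short motif, so its presence is common. The longer HNF4 site CAAAGTCCA (0.384% of promoters), the HNF1 half-site GTTAAT (6.43%), the GATA motif AGATAA (9.99%), the CDX2 motif TTTATG (10.8%) and the TATA box TATAAA (12.4%) were in neither window, searched on both strands. GC content was 53.6% for Dpep1 and 58.4% for Dpep3, and 53.9% and 67.8% of promoters had a lower one.

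Measured against other transcripts of the same library, Dpep1 stood higher in C3H without overlap between strains for 4 of 6 partners. Such a ratio does not depend on depth, but it makes the partner the scale. Of these 4 partners, Anpep and Alox5 also separated the strains by themselves, wholly lower in C3H. The 6 partners were genes of the steps before Dpep1, another brush border peptidase, and the summed epithelium list. They were chosen with earlier results of these data known. The p-values of the ratios therefore describe the separation and are not independent evidence. The ratio of Dpep1 to epithelium list counts was 0.0370, 0.0370, 0.0333 and 0.0356 in B6 2, 3, 4 and 5. In C3H 1, 3, 4 and 5 it was 0.0437, 0.0475, 0.0464 and 0.0478. All 4 C3H values lay above all 4 B6 values, although neither Dpep1 nor the list separated the strains by itself. The ratio was 1.30-fold higher in C3H (exact two-sided permutation p = 0.0286, the smallest that 70 splits allow, and 0.0429 adjusted over the 6 ratios). For 23.8% of tested genes the ratio to this list did not overlap between strains, and for 18.5% it was wholly higher in C3H, so this separation was not rare among transcripts. Of the 8 list genes only the intestinal identity factor gene Cdx2 passed the threshold, falling from 126 to 101 CPM (adjusted p = 0.0306, edgeR), a call that 5 libraries could each undo when removed (B6 3 and 5, C3H 1, 3 and 4, to 0.0821 at most). The median log2 fold change of the list was -0.25.

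Ggt1, the main gamma-glutamyl transferase of the brush border, acts on the step before Dpep1. It had 1075, 1286, 1295 and 1342 CPM in B6 2, 3, 4 and 5 and 758, 918, 1007 and 1405 CPM in C3H 1, 3, 4 and 5. The strains overlapped, C3H 5 being the highest of all. The count ratio of Dpep1 to Ggt1 was 0.363, 0.355, 0.324 and 0.326 in B6 and 0.529, 0.474, 0.502 and 0.423 in C3H, in the same order. The ratio did not overlap between strains and was 1.41-fold higher in C3H (exact permutation p = 0.0286, adjusted 0.0429). The ratio to Ggt1 did not overlap for 18.3% of tested genes and was wholly higher in C3H for 15%. Ggt1 itself was not called (-0.29 on the log2 scale, adjusted p = 0.287), except without C3H 5 (-0.48, adjusted p = 0.0280, edgeR).

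Anpep, the abundant aminopeptidase N, which also splits cysteinylglycine, gave a like result. Its level ran from 9764 to 11811 CPM in B6 and from 7350 to 8912 CPM in C3H. Unlike Ggt1, Anpep thus separated the strains by itself, though it was not called (adjusted p = 0.182, edgeR). Dpep1 stood 1.44-fold higher relative to Anpep in C3H, from 0.0387 to 0.0429 in B6 and from 0.0546 to 0.0666 in C3H (exact permutation p = 0.0286, adjusted 0.0429). Relative to Alox5, the 5-lipoxygenase gene that starts leukotriene synthesis, Dpep1 stood 1.57-fold higher, from 88.6 to 101 in B6 and from 104 to 217 in C3H (same p). Such separation from these 2 partners was common: 39.1% of genes stood wholly higher relative to Anpep (43.2% did not overlap in either direction) and 42.3% relative to Alox5 (45.2% in either direction). Alox5 was also wholly lower in C3H by itself. It fell from 4.42 to 3.19 CPM (adjusted p = 0.0312, edgeR), a call undone by removing B6 3, B6 5 or any of C3H 3, 4 and 5 (to 0.0844 at most).

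Ltc4s, the leukotriene C4 synthase gene, and Ggt5, a transferase specialised for leukotriene C4, gave ratios that overlapped between strains. The Dpep1 to Ltc4s ratio ran from 38.9 to 82.2 in B6 and from 62.1 to 95.7 in C3H (1.26-fold, exact permutation p = 0.286). The Dpep1 to Ggt5 ratio ran from 61.7 to 82.8 in B6 and from 42.7 to 68.9 in C3H (0.805-fold, exact permutation p = 0.286). Both have an adjusted p of 0.286 over the 6 ratios. Over all tested genes 10.3% did not overlap relative to Ltc4s and 40.8% relative to Ggt5. Leaving out a library cannot make separated values overlap, so the 4 separated ratios stayed apart by necessity. Their adjusted exact p was 0.0571, or 0.0857 for Alox5, with any 1 B6 library left out. With any 1 C3H library left out it was 0.0429. The smallest exact p for 3 against 4 libraries is 0.0286, and each adjusted value also depends on the other ratios. These values are therefore no measure of stability.

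**Figure D2:**
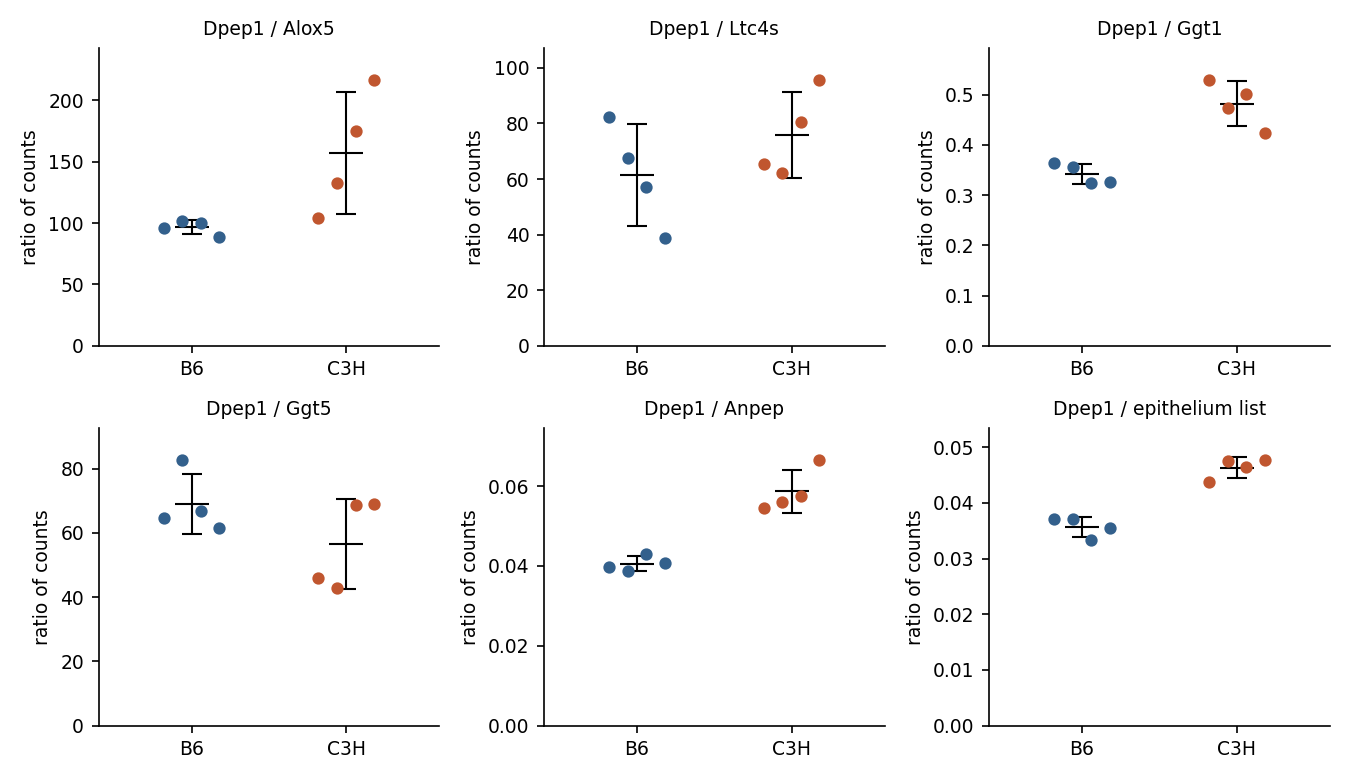
Ratio of Dpep1 counts to the counts of each of 6 partners (points: libraries, line and bar: mean and SD, n = 4 per strain, blue B6, orange C3H, axes start at 0). The strains separate for Alox5, Ggt1, Anpep and the epithelium list, and overlap for Ltc4s and Ggt5.

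Scaling every gene to the epithelium list in place of TMM, a choice made after seeing the ratios, gave Dpep1 a log2 fold change of 0.38 (standard error 0.08, adjusted p = 0.00442, edgeR), 1.30-fold with a 95% interval of 1.15 to 1.46. That scaling moved the median of all tested genes to 0.24, with 2940 genes called higher (16.3%) and 840 lower (21% in all), and 66.8% of tested genes had a smaller log2 fold change than Dpep1. Relative to that median Dpep1 stood 0.13 higher on the log2 scale. The call on Dpep1 thus turned on the scaling: it failed with TMM and passed against these 8 epithelial genes.

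Within C3H, Dpep1 had the same order of libraries as the summed markers of villus enterocytes, the absorptive cells at the tips of the mucosal folds. The 12 villus markers, such as the apolipoprotein gene Apoa4 (23302 and 25361 CPM, adjusted p = 0.805, edgeR), summed to 53698, 59976, 75053 and 87656 CPM in C3H 1, 3, 4 and 5, the order of the Dpep1 values. In B6 2, 3, 4 and 5 the sums were 60532, 67630, 76341 and 65831 CPM, an order that Dpep1 did not share, since B6 4 had the highest sum and the second lowest Dpep1. The 8 crypt and dividing cell markers, such as the stem cell gene Olfm4, ran the other way in C3H, at 770, 560, 502 and 406 CPM. In B6 they were at 614, 516, 423 and 527 CPM. The TMM factors of C3H 1, 3, 4 and 5 were 1.13, 1.07, 0.977 and 0.915, the reverse of the Dpep1 order. Dpep1 and villus levels are both divided by these factors, which widened their shared rise in C3H. This order in C3H was not particular to the villus list. The summed brush border peptidases described below had 18402, 21249, 24019 and 25242 CPM in C3H 1, 3, 4 and 5. The summed lists of glutathione turnover, glycolipid-anchored surface proteins and the leukotriene pathway, which holds Dpep1, shared the order. The epithelium list and the lists of other cell types did not. The share of all genes with this order was not counted. None of the 20 markers in these lists was called or at 0. The ratio of Dpep1 to the villus list, a partner added after seeing the data, was 0.00645, 0.00675, 0.00549 and 0.00665 in B6 and 0.00748, 0.00725, 0.00673 and 0.00678 in C3H. It overlapped between strains and was 1.117-fold higher in C3H (exact permutation p = 0.0571, and 0.08 adjusted over 7 ratios). With this ratio included, the adjusted p of the 4 separated ratios was 0.05. In bulk tissue fewer cells of a type and less RNA per cell cannot be told apart.

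The pancreatic transcripts followed another order, with Dpep1 at 435 CPM in the richest library, C3H 3, and at 594 CPM in C3H 5. Of these 12 markers 2 were called (16.7%, against 21.4% of all tested genes). They were the amylase gene Amy2b (0.115 against 13.1 CPM, adjusted p = 0.0137, lost with limma-voom) and the colipase gene Clps (30.02 against 94.5 CPM, adjusted p = 0.0258, edgeR, lost without B6 2, B6 3, B6 4 or C3H 3, up to 0.0674). The 8 fibroblast markers, Col3a1 being the most abundant, summed to 338 to 517 CPM in B6 and 364 to 545 CPM in C3H. The 7 smooth muscle markers, led by Mylk, summed to 845 to 1291 and 983 to 1107 CPM, and the 6 adipose markers, led by Cidec, to 123 to 165 and 123 to 308 CPM. None of the latter 3 lists had a called member. Of the adipose markers, 5 of 6 (Adipoq, Plin1, Cfd, Lep and Retn) were at 0 in C3H 1 and all 5 were highest in C3H 3, Adipoq at 31.5 CPM, so that Cidec made up the whole sum of C3H 1. T cell markers summed to 106 to 135 CPM in B6 and 66.3 to 89.0 CPM in C3H, 7 of 8 called lower, such as Trac, Cd3d and Cd3e, and 1 higher, Cd4 (100%, against 21.4% of all tested genes). B and plasma cell markers summed to 1317 to 1570 and 918 to 1195 CPM, with Tnfrsf17 (adjusted p = 0.00286) and Jchain (adjusted p = 0.0233, edgeR, up to 0.0913 without B6 2, C3H 3 or C3H 5) lower and 6 of 8 not called (25%, against 21.4%). The part of these cells in the Dpep1 level was not tested.

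**Figure D3:**
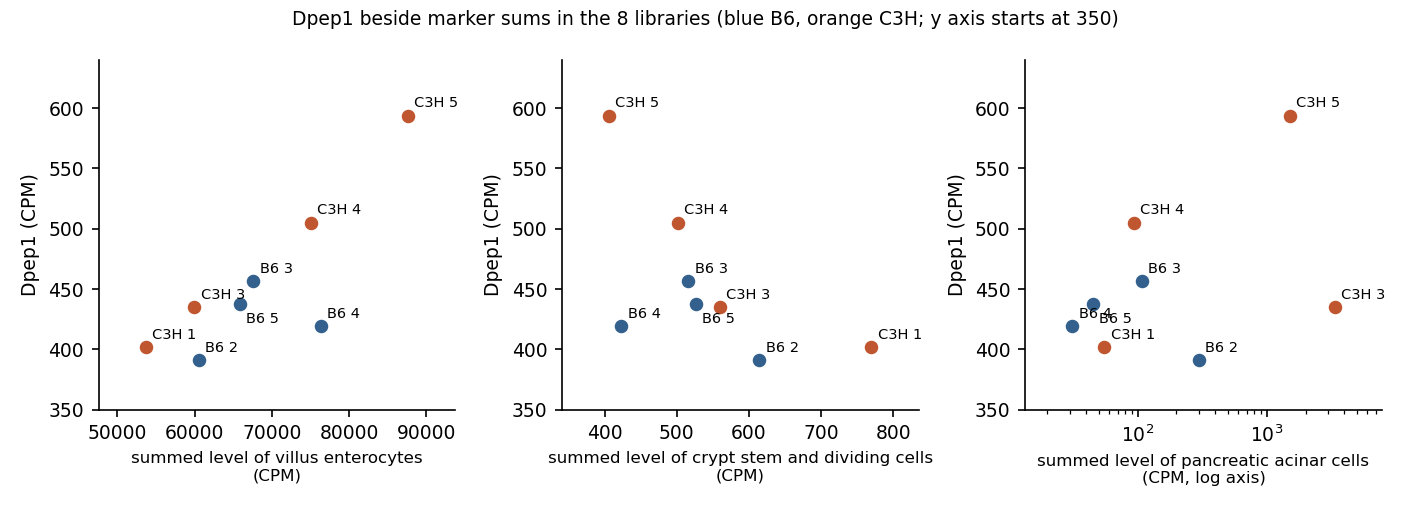
Dpep1 level against the summed level of villus, crypt and pancreatic acinar markers in each library (all CPM, pancreatic axis logarithmic, Dpep1 axis not from 0). In C3H, Dpep1 rises from 402 to 594 CPM as the villus sum goes from 53698 to 87656 CPM and the crypt sum from 770 to 406 CPM. Within a library all these levels are divided by the same TMM factor.

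Among the steps of the leukotriene pathway, the dipeptidase step was 1 of those with no call. Of 15 tested members of the 18 listed, 8 (53.3%) passed the threshold against 21.4% of all tested genes, with a median log2 fold change of -0.10. In synthesis 2 of 6 rose and 2 fell, in glutamyl trimming 1 of 3 rose, in receptors 1 of 4 rose and 2 fell, and neither the exporter Abcc1 nor Dpep1 was called. The even split of 4 higher and 4 lower turned on the scaling: 4 were higher and 2 lower with library totals, and 5 higher and 1 lower when scaled to the epithelium list, where Alox5 (adjusted p = 0.445), Alox5ap (0.273) and Cysltr2 (0.137, edgeR) were not called. Per kb of exon, the mean levels in B6 and C3H differed widely between genes of the pathway. Ggt1 had 366 and 300 CPM per kb, Dpep1 171 and 195, and the transferase relative Ggt6 12.5 and 11.9. Ltc4s had 7.42 and 6.32, the 5-lipoxygenase partner Alox5ap 3.29 and 2.26, Alox5 1.08 and 0.778, and Ggt5 1.05 and 1.47. Ggt1 and Dpep1 thus stood above Alox5, Alox5ap and Ltc4s in both strains, and above the receptor genes Gpr17 (1.74 and 5.50 CPM per kb), Cysltr2 (0.944 and 0.528) and P2ry12 (0.412 and 0.168). Mgst2 and Mgst3, microsomal glutathione transferases with other substrates as well, stood at 29.8 and 52.4 and at 261 and 341 CPM per kb, Mgst3 above Dpep1 in both strains.

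The precision of Dpep1 was like that of the neighbouring steps. On the log2 scale the 95% interval of the strain difference was -0.09 to 0.46 for Dpep1, -0.27 to 0.12 for Ggt6, -0.68 to 0.10 for Ggt1 and 0.21 to 0.76 for Ggt5. The 95% intervals of called members cannot reach 0, since interval and p come from the same F statistic. Some of these calls rested on single libraries: removing B6 3 or C3H 3 undid the call of Ggt5 (adjusted p = 0.0632 for the latter). Removing any of B6 2, 3 and 4 undid that of Mgst3 (to 0.0669 at most, edgeR), and removing any of B6 4 and 5 and C3H 1 and 4 that of Alox5ap (to 0.0920 at most). Without B6 3, 5 members passed, and 2 passed without the 4 pancreas-rich libraries.

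**Figure D4:**
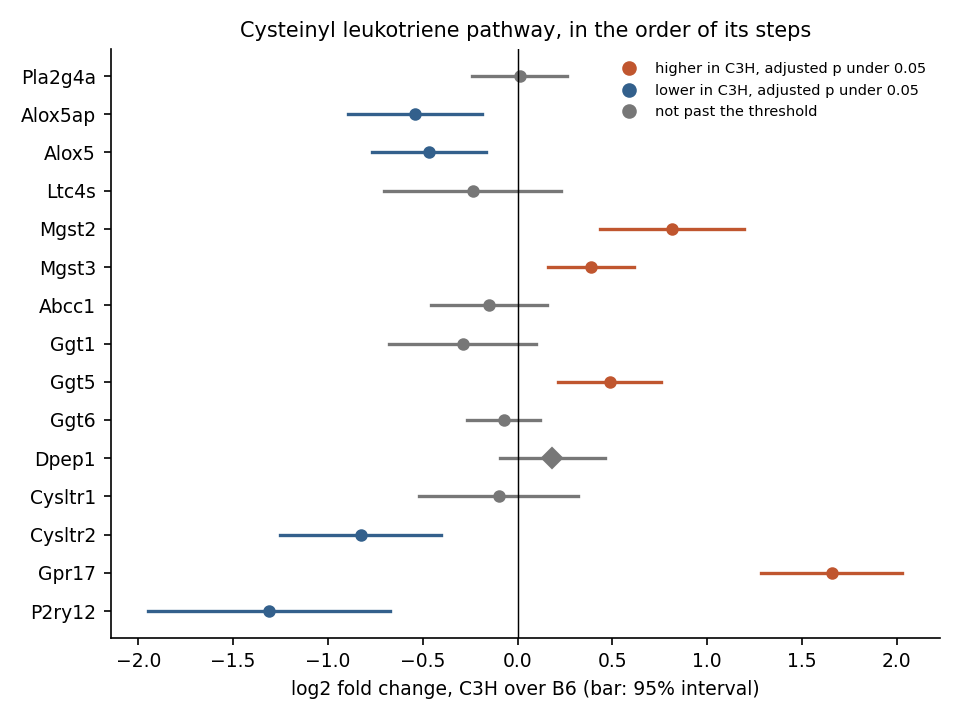
Log2 fold change, C3H over B6, of the 15 tested pathway genes in the order of its steps, with 95% intervals (orange higher, blue lower, grey not past the threshold). The interval of Dpep1, the diamond, spans 0, while 4 genes lie higher and 4 lower.

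DPEP1 also has a part in glutathione turnover through cysteinylglycine. The list for this turnover also holds genes of glutathione synthesis, reduction, breakdown and transport, so it is wider than the task of Dpep1. In this list for cysteinylglycine and glutathione turnover, 5 of 16 tested genes passed (31.2%, against 21.4%), 1 higher and 4 lower in C3H. Gclc, a subunit of the enzyme that starts glutathione synthesis, rose from 44.5 ± 9.46 to 128 ± 12.99 CPM (SD, n = 4 each, adjusted p = 1.85e-05, edgeR). Chac1, which degrades glutathione in the cytosol, fell from 0.924 to 0.389 CPM (adjusted p = 9.89e-04), and Gsr, glutathione reductase, fell from 81.3 to 56.4 CPM (adjusted p = 0.00597, edgeR). The Gsr call was lost when scaled to the epithelium list (-0.32, adjusted p = 0.164) and without the 4 pancreas-rich libraries (-0.35, adjusted p = 0.303, edgeR), and the Chac1 call without those libraries (adjusted p = 0.0689, edgeR). Cndp2, a cytosolic dipeptidase acting on cysteinylglycine, was not called (904 and 823 CPM, adjusted p = 0.541, edgeR). Lap3, another peptidase of the list, was wholly lower in C3H and fell from 651 to 449 CPM (adjusted p = 0.00860, edgeR).

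Among other peptidases of the brush border, 5 of 11 tested genes fell and 0 rose (45.5%, against 21.4%, or 10.1% for lower calls alone). Their median on the log2 scale was -0.47. Mep1a, the meprin alpha subunit, fell from 185 ± 36.3 to 12.8 ± 1.24 CPM. Naaladl1 fell from 523 ± 90.4 to 253 ± 5.99 CPM, and Xpnpep2, an aminopeptidase for peptides with proline, fell from 138 ± 18.4 to 88.2 ± 7.08 CPM (SD, n = 4 each, adjusted p = 2.39e-08, 1.13e-04 and 0.00119, edgeR). With a log2 fold change of 0.18, Dpep1 lay above each of these 11, the highest of which was Ace at 0.05. Other proteins held in the intestinal surface by a glycolipid anchor, as DPEP1 is, moved both ways: 4 of 16 rose and 4 fell (50%, against 21.4%), with a median of 0.18. The pantetheinase gene Vnn1 fell from 61.2 to 24.6 CPM, the folate receptor gene Folr1 from 0.611 to 0.0535 CPM and Ly6e from 144 to 64.7 CPM (adjusted p = 2.93e-05, 5.53e-05 and 1.46e-04, edgeR).

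Few of the genes around Dpep1 on chromosome 8 were called. Among the 10 nearest tested protein-coding genes on each side, by their order in GENCODE M21, 2 of 20 passed (10%, against 23.1% of 782 tested protein-coding genes of chromosome 8 and 21.4% of all), with a median log2 fold change of 0.02. Acsf3, a mitochondrial acyl-CoA synthetase, was the fifth gene before Dpep1 and fell from 42.5 to 31.2 CPM (adjusted p = 0.0126). Spg7, a mitochondrial protease, was the third before it and rose from 64.9 to 81.4 CPM (adjusted p = 0.0391, edgeR), a call undone by removing any of B6 2, 3 and 4 and C3H 4 and 5 (to 0.127 at most). The immediate neighbours were not called: Cpne7, before Dpep1, had 0.409 and 0.397 CPM, and Chmp1a, after it, had 174 and 169 CPM (log2 fold changes -0.05 each). Against the epithelium list, Acsf3 was not called (adjusted p = 0.152, edgeR).

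**Figure D5:**
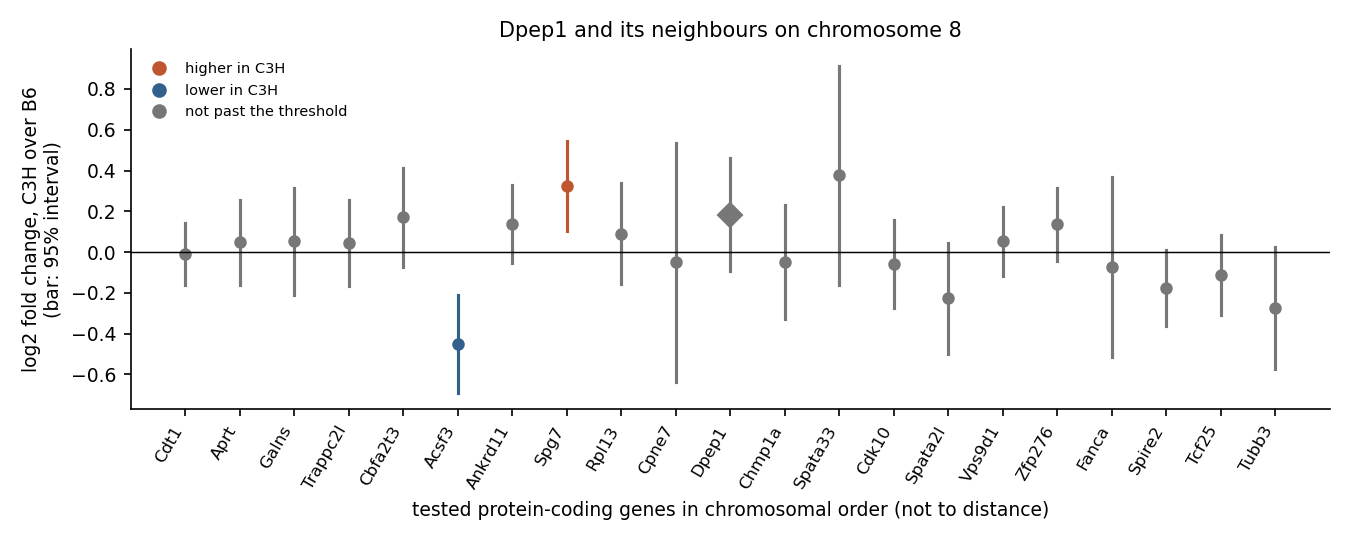
Log2 fold change, C3H over B6, of Dpep1 (diamond) and the 10 nearest tested protein-coding genes on each side, in chromosomal order, with 95% intervals. Only Acsf3 (lower) and Spg7 (higher) pass the threshold.

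The transcripts closest to Dpep1 in level changed with the measure used. Over the 8 libraries the highest Pearson correlations of log2 CPM, among 8454 genes with at least 10 CPM, were those of Pdcd6 (0.983), Ywhah (0.981), Atp9a (0.976), LTO1 (0.971) and Capg (0.969). None of these 5 was called between strains, except Capg without C3H 1 (log2 fold change 0.75, adjusted p = 0.0273, edgeR). By rank correlation 1 of these 5, Ywhah, was again among the top 5. Gss, the glutathione synthetase gene of the turnover list, and Tm6sf2 ranked the 8 libraries exactly as Dpep1 did (Spearman 1, Pearson 0.914 and 0.944), and Gss was not called (adjusted p = 0.600, edgeR). With each strain's mean removed the highest were Galns (0.996), Prr15 (0.995), Gpx4 (0.991), Entpd2 (0.990) and Pgm1 (0.989). Of these, Galns is a chromosome 8 neighbour of Dpep1, the eighth before it, and Pgm1 rose from 76.7 to 105 CPM (adjusted p = 0.00738, edgeR), while Entpd2 was called only without C3H 5 (-0.35, adjusted p = 0.0476). The genes named are the highest of 8454, so high correlations come in part from the choice. All these values come from 8 libraries that share their depth and cell content with Dpep1, and they are descriptions.

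Ggt1 showed the contrast between the 2 measures. Its Pearson correlation with Dpep1 was 0.456 over all 8 libraries (Spearman 0.476) and 0.957 with each strain's mean removed. In C3H both genes had the same order of libraries. In B6 both were lowest in B6 2, but Dpep1 was highest in B6 3 and Ggt1 in B6 5. The cystine transporter gene Slc7a9 (0.334 and 0.936), the meprin beta gene Mep1b (-0.05 and 0.935) and Anpep (0.02 and 0.858) behaved alike, while Alox5 (-0.69 and -0.63) and Ltc4s (0.03 and 0.17) did not follow Dpep1 by either measure.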

How the data were processed

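Polyadenylated RNA of the jejunum (200 ng, RNA integrity number above 7) was made into stranded libraries, per the labels' protocols. Alignment by the authors used STAR 2.7.9a and GRCm39, a C57BL/6J genome, and counting HTSeq 2.0.2, per the submitters' processing notes; the sources used here do not give the annotation release, strand setting or counting mode. Raw counts of 56941 Ensembl identifiers make up the deposited table. Symbols, gene order and exon lengths came from GENCODE M21 (GRCm38), and promoters from RefSeq (GRCm38.p6), which held Dpep1 and Dpep3.

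Counts were fitted with edgeR 4.0.16 (R 4.3.3; TMM, filterByExpr at a minimum count of 10, quasi-likelihood F test, all 8 libraries), adjusted over the 18025 genes tested. Total counts were 37205896 to 58251332 per library, and the chi-square per degree of freedom for each pair within a strain was 23.2 to 89.8 (about 1 for a copy). Standard errors were back-calculated from the F statistic. Ratios were tested by exact permutation over libraries. Log2 CPM used a prior count of 2. The method was tested on simulated data. The members, gene lists, ratios and naming rule were chosen with earlier results of these data known. Genes named were the members, ratio partners, called pathway genes, up to 3 per other list by adjusted p or else the most abundant, called and immediate neighbours, and the 5 closest by Pearson correlation with and without strain means. Cndp2, Lap3, Ggt6, Ace, Cd4, Slc7a9, Mep1b, Gss, Tm6sf2, Cela1, Prss2 and 5 adipose markers were named after their values were seen. The scaling to the epithelium list was also chosen after seeing the data. Alternatives used DESeq2 1.42.0 and limma-voom (limma 3.58.1).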

Additional observations from a re-analysis of the deposited data

Results flagged for a closer look

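In 2 of the 42 groups of 4 libraries examined, 1 library stood apart from the other 3, its gap to the nearest divided by the whole range passing Dixon's 95% critical value for 4 samples. Chance alone gives about 1 such group in 20. Ltc4s in C3H had a value of 0.858, with C3H 3 at 7.01 CPM and the lowest library at 6.14 CPM. Mgst3 in B6 had 0.923, with B6 5 at 319 CPM and the lowest library at 272 CPM. Ltc4s is the denominator of 1 of the Dpep1 ratios, but neither the Dpep1 level nor a ratio met this value in either strain.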

How the results depend on the processing

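Dpep1 kept its direction under all 19 alternatives (log2 fold change 0.07 to 0.38) and passed the threshold in 1, the scaling to the epithelium list added after seeing the data (0.38). Replicate numbers did not pair the libraries (same-number correlations 0.18, 0.006 and -0.05), and a replicate block over the 6 libraries with shared numbers gave Dpep1 0.20 (adjusted p = 0.407, edgeR). That block left 2919 genes called, 5 pathway genes and 5.263% of neighbours, the last also 5.263% in those 6 libraries with no block. Without the 4 pancreas-rich libraries, 1675 genes, 2 pathway genes and 0% of neighbours were called (edgeR), and the log2 ratio differences were 0.67 for Ggt1 and 0.42 for Anpep. Of neighbours, 5% were called with DESeq2 size factors or no filter on low counts, and 20% with 5 genes on each side. The cause was not tested.

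Leaving out 1 library at a time, 5 to 8 pathway genes and 5% to 10% of neighbours were called, and the log2 ratio differences ran from 0.474 to 0.828 (Alox5), 0.4444 to 0.5527 (Ggt1), 0.4685 to 0.5641 (Anpep) and 0.342 to 0.4037 (epithelium list).
Over 49 named genes, 811 of 925 values kept direction and side of the threshold, 76 lost the call, 13 gained it and 25 turned direction. Of 30 named genes called, 17 lost the call without the 4 pancreas-rich libraries, where 4 libraries remain, and 8 when scaled to the epithelium list.
Leaving out 1 library turned the log2 fold change of Ltc4s (-0.42 to 0.0238), Apoa4 (-0.0288 to 0.22), Olfm4 (-0.077 to 0.26), Cpne7 (-0.18 to 0.11), Chmp1a (-0.14 to 0.0233), Galns (-0.071 to 0.12), Prr15 (-0.0568 to 0.17), Gpx4 (-0.16 to 0.0027).
Scaled to the epithelium list, the turned values were Ltc4s 0.0046, Mylk 0.13, Cpne7 0.19, Chmp1a 0.15 and Gpx4 0.14. Without the pancreas-rich libraries they were Apoa4 -0.14, Cidec -0.0701, Cpne7 0.0097, Galns -0.0767 and Prr15 -0.0313. Olfm4 was -0.0165 with the block and -0.0084 without it, and Cpne7 0.0287 with library totals. No turned value was a call in the fit reported.

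Depth limits Dpep2 and Dpep3 to intervals wider than 5-fold. With 4 libraries per strain, the interval of the Dpep1 difference reaches 1.37-fold. Strain differences in mapping to a C57BL/6J genome were not tested.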
